A study of Homo sapiens with 6 samples.

Results

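The genes described here are 33 genes of mismatch repair, base excision repair and nucleotide excision repair, out of the 15953 genes measured by RNA-seq in the human bladder cancer cell line EJ. They were picked by gene symbol for their known roles in these pathways, with earlier results of these data known, and every one of the 33 was found in the expression tables. The 6 libraries form 2 groups of 3. The group labelled shSTIL came from EJ cells with a stable short hairpin RNA against STIL, a centriole duplication gene, and the group labelled shNC from the corresponding control hairpin cells. Both groups were otherwise the same line, with no further treatment in the labels. The hairpins were delivered by lentivirus. The number of hairpins and clones behind the stable cells, and whether the 3 libraries of a group were separate cultures, are not given in the sources used here, so the P-values measure the spread between these libraries, which may be technical.

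Mismatch repair removes bases that the replication machinery paired wrongly: MutS proteins bind the mismatch, MutL proteins nick the new strand, and the stretch is removed and copied again. In base excision repair a DNA glycosylase cuts off a damaged base, an endonuclease opens the strand at the abasic site, and a polymerase and a ligase close the gap, with PARP enzymes and XRCC1 gathering at the break. Nucleotide excision repair unwinds the helix around a bulky lesion with the transcription factor TFIIH, cuts the strand on both sides and replaces the piece. It starts either by searching the whole genome or from a stalled RNA polymerase. Mismatch repair works mainly behind the replication fork, while the other pathways act throughout the cell cycle.

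The libraries held 16214772 to 16431243 reads in the shNC group and 16734469 to 16901634 in the shSTIL group. Values are log2 CPM, library-scaled read counts on a log2 scale with a prior count of 2 reads, which slightly shrinks the changes of weak genes. STIL itself averaged 6.03 log2 CPM in shNC and 4.04 in shSTIL, a log2 fold change of -1.99. The epithelial keratins KRT8 and KRT18 averaged 8.56 and 9.32 log2 CPM in shNC cells. The mesenchymal genes ranged widely in shNC, with VIM at 10.5, FN1 at 6.44, ZEB1 at 4.32 and CDH2 at 1.65 log2 CPM. The urothelial list was mixed, with KRT7 at 6.50, PPARG at 4.28, UPK1A at 1.02 and UPK1B at 0.26 log2 CPM in shNC, GATA3 at -0.71, and UPK2, KRT20 and KRT5 at -1.90 log2 CPM or lower, near the floor of the table.

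Of the 33 repair genes, 13 fell and 6 rose in shSTIL cells, and 14 did not pass the test, which was limma with a mean-variance trend and a Benjamini-Hochberg adjusted p under 0.01 over all genes. These 19 calls are 57.6% of the repair genes, beside 47.1% of all genes tested (23.6% lower and 23.5% higher). Since every repair gene had a mean of at least 2.36 log2 CPM, the 61.9% called among the genes with a mean of at least 1 log2 CPM is the closer background (31.4% lower and 30.5% higher). The overall share of calls was therefore not above that of other expressed genes, while 39.4% of the repair genes fell and 18.2% rose. The shNC and shSTIL values were fully apart for 24 of the 33 genes, or 72.7%, beside 60.3% of all genes and 75.7% of those with a mean of at least 1 log2 CPM, so this share too was not above that of other expressed genes. The median log2 fold change was -0.12 over the repair genes and 0.0052 over all genes. In bulk RNA, fewer cells of one state, such as S phase, and less RNA per cell cannot be told apart.

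By pathway, 2 of 5 mismatch repair genes fell and none rose, 10 of 17 base excision repair genes fell (58.8%) and 2 rose, and 1 of 11 nucleotide excision repair genes fell and 4 rose (36.4%). The shares that fell in mismatch repair (40%) and rose in nucleotide excision repair were near those of the expressed genes, and the pathways were not tested against each other. Leaving out 1 library at a time gave 10 to 12 falls, but the number of rises went from 6 to 3 without shNC replicate 3, to 3 without shSTIL replicate 1 and to 2 without shSTIL replicate 3. These fits have fewer libraries. No call changed its direction in any fit.

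**Figure D1:**
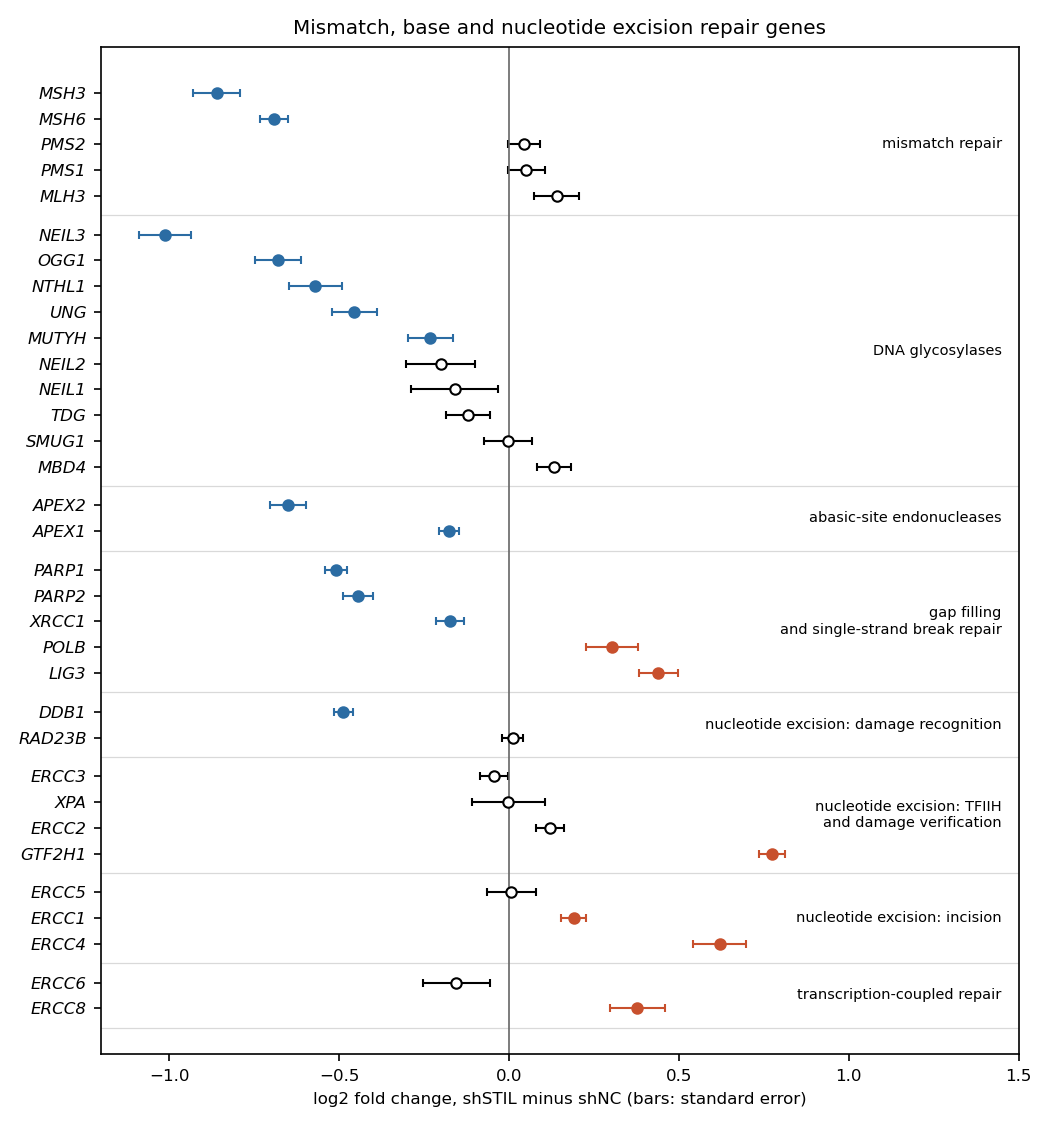
Log2 fold change of each of the 33 repair genes (shSTIL minus shNC), grouped by step of repair; points are limma estimates from 3 libraries a group and bars are standard errors. Filled points passed an adjusted p under 0.01 (blue lower, red higher) and open points did not. Of the 13 falls, 12 sit in the mismatch and base excision rows, from -1.01 for NEIL3, and DDB1 (-0.49) sits in the nucleotide excision rows with 4 of the 6 rises, up to 0.77 for GTF2H1.

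In mismatch repair, the mismatch-binding MutS genes fell and the MutL genes did not pass the test. MSH3 (chr5:80654648-80876460, GENCODE 29 on GRCh38, plus strand), which recognises insertion and deletion loops, had 5.29, 5.33 and 5.38 log2 CPM in the shNC libraries and 4.35, 4.63 and 4.44 in the shSTIL libraries. Every shSTIL library was lower than every shNC library, with the shSTIL values more spread than the shNC values. The log2 fold change of MSH3 was -0.86 (standard error, SE, 0.07, limma, adjusted p = 1.89e-07), leaving 55.1% of control. MSH6 (chr2:47695530-47810101, plus strand), which recognises base mismatches and short loops, had 6.71, 6.85 and 6.78 log2 CPM in shNC and 6.13, 6.06 and 6.08 in shSTIL. Its groups were also apart, with a log2 fold change of -0.69 (SE 0.04, limma, adjusted p = 1.21e-08), leaving 61.9% of control.

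The MutL genes PMS2, PMS1 and MLH3, which form the nicking and accessory complexes, stayed close to control. PMS2 had 6.07, 6.23 and 6.22 log2 CPM in shNC and 6.25, 6.19 and 6.21 in shSTIL, so its groups overlapped. Its log2 fold change was 0.04 (SE 0.05, limma, adjusted p = 0.461). PMS1 gave 0.05 (SE 0.06, limma, adjusted p = 0.473). MLH3 gave 0.14 (SE 0.07, limma, adjusted p = 0.0919), with shSTIL libraries at 4.40 to 4.45 log2 CPM and shNC libraries at 4.19 to 4.35. PMS2 has near-identical copies in the genome, between which RSEM divides reads, so its level is uncertain. The exonic bases that MSH6 shares with FBXO11 on the opposite strand come to 22.0% of the MSH6 transcript length. FBXO11 averaged 6.18 log2 CPM over all libraries with a log2 fold change of 0.12, so the split of reads at MSH6 is uncertain too.

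Promoters were searched for words of E2F, the factor family of S phase genes. The words were TTTCCCGC, TTTCGCGC, TTTGCCGC and TTTGGCGC, on both strands of the 300 bases around each RefSeq start (250 before it and 50 from it on, counting the start base as 0). MSH6 carries TTTCCCGC at positions 3 to 10. Of the 30 repair genes with a promoter in the RefSeq table, 3 held an E2F word (MSH3, MSH6 and PMS2), or 10%, beside 625 of the 12621 promoters of measured genes (4.95%) and 7.20% of those of genes called lower. PMS2, with the word at positions -43 to -36, was among the genes that did not pass the test.

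Of the 10 DNA glycosylase genes, 5 fell (50%), none rose and 5 did not pass the test. Among all genes with a mean of at least 1 log2 CPM, 31.4% fell and 30.5% rose, and the difference was not tested. The UNG and MUTYH calls among these 5 were not stable when 1 library was left out, as given below. NEIL3 (chr4:177309836-177362943, plus strand), a glycosylase for oxidised bases that also acts on crosslinks at replication forks, changed most among the 33 genes. It had 4.65, 4.91 and 4.79 log2 CPM in shNC and 3.73, 3.78 and 3.80 in shSTIL. The shSTIL libraries lay close together and far under the lowest shNC library. The log2 fold change of NEIL3 was -1.01 (SE 0.08, limma, adjusted p = 9.40e-08), leaving 49.6% of control. Among all 15953 genes, called or not, 3.23% had a log2 fold change as low or lower.

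OGG1, which removes oxidised guanine, had 5.03, 5.01 and 4.92 log2 CPM in shNC and 4.40, 4.19 and 4.33 in shSTIL. Its log2 fold change was -0.68 (SE 0.07, limma, adjusted p = 1.32e-06), with no overlap of the groups. NTHL1, which removes oxidised pyrimidines, had 4.14, 4.26 and 4.25 log2 CPM in shNC and 3.60, 3.74 and 3.60 in shSTIL, a log2 fold change of -0.57 (SE 0.08, limma, adjusted p = 2.90e-05). NEIL3, OGG1 and NTHL1 thus kept between 49.6% and 67.3% of their control level, whereas NEIL1 and NEIL2, which also act on oxidised bases and did not pass the test, were at 89.5% and 87.0%. UNG, which removes uracil from DNA, fell from 5.99, 5.87 and 5.82 log2 CPM in shNC to 5.49, 5.54 and 5.28 in shSTIL. The log2 fold change of UNG was -0.46 (SE 0.07, limma, adjusted p = 5.39e-05). MUTYH, which removes adenine paired with oxidised guanine, fell by 0.23 on the log2 scale (SE 0.07, limma, adjusted p = 0.00927). The UNG call was lost without shNC replicate 1, 2 or 3 or shSTIL replicate 1 (adjusted p 0.0105 to 0.0166), and the MUTYH call without any 1 of the 6 libraries (adjusted p 0.0132 to 0.0275). Exonic bases shared with an opposite-strand gene come to 14.8% of the transcript length for NTHL1 (TSC2), 17.9% for MUTYH (TOE1) and 11.4% for OGG1 (CAMK1). TSC2 was more abundant than NTHL1 (6.53 against 3.93 log2 CPM over all libraries), with a log2 fold change of 0.08. TOE1 and CAMK1 were less abundant than MUTYH and OGG1. The split of reads at these 3 genes is uncertain.

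The other glycosylase genes did not pass the test. TDG and MBD4, which act on thymine opposite guanine, gave log2 fold changes of -0.12 (limma, adjusted p = 0.139) and 0.13 (limma, adjusted p = 0.0374). The groups of MBD4 did not overlap, at 5.11 to 5.18 log2 CPM in shNC and 5.22 to 5.32 in shSTIL. SMUG1, a second uracil glycosylase, gave -0.0040 with overlapping groups (limma, adjusted p = 0.973), whereas UNG fell. NEIL2 and NEIL1, relatives of NEIL3, gave log2 fold changes of -0.20 (SE 0.10) and -0.16 (SE 0.13). They rested on 136 to 171 reads and 75.1 to 90 reads per library. The exonic bases that NEIL1 shares with MAN2C1 on the opposite strand come to 38.4% of its transcript length, and MAN2C1 was more abundant (5.21 against 2.36 log2 CPM over all libraries) with a log2 fold change of 0.30.

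Both genes for endonucleases that open abasic sites fell, by different amounts. APEX1, the main such enzyme, had 7.65, 7.63 and 7.62 log2 CPM in shNC and 7.44, 7.46 and 7.47 in shSTIL. This is a small fall with little spread, a log2 fold change of -0.18 (SE 0.03, limma, adjusted p = 1.61e-04). APEX2, which resects ends during DNA replication stress, had 5.94, 5.77 and 5.88 log2 CPM in shNC and 5.27, 5.17 and 5.20 in shSTIL. Its log2 fold change was -0.65 (SE 0.05, limma, adjusted p = 1.66e-07), leaving 63.7% of control. Within a library, the log2 ratio of APEX2 to APEX1 was lower in shSTIL by -0.47, from -1.77 ± 0.08 in shNC to -2.24 ± 0.06 in shSTIL (SD, n = 3).

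The later steps of base excision repair split by enzyme. The break sensors PARP1 and PARP2 and the scaffold XRCC1 fell, and the polymerase POLB and the ligase LIG3 rose. PARP1 (chr1:226360691-226408079, minus strand) had 8.07, 8.05 and 8.11 log2 CPM in shNC and 7.60, 7.55 and 7.55 in shSTIL, a log2 fold change of -0.51 (SE 0.03, limma, adjusted p = 1.74e-08). PARP2 fell by 0.44 on the log2 scale (SE 0.04, limma, adjusted p = 1.41e-06), so the log2 ratio of PARP1 to PARP2 was 2.20 ± 0.02 in shNC and 2.13 ± 0.07 in shSTIL (SD, n = 3), with overlapping groups. XRCC1 fell by 0.17 on the log2 scale (SE 0.04, limma, adjusted p = 0.00272).

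LIG3, the ligase that XRCC1 binds, had 5.18, 5.27 and 5.29 log2 CPM in shNC and 5.78, 5.57 and 5.71 in shSTIL. The log2 fold change of LIG3 was 0.44 (SE 0.06, limma, adjusted p = 1.70e-05), opposite to XRCC1. POLB, which fills the gap, had 3.80, 3.65 and 3.77 log2 CPM in shNC and 4.08, 4.02 and 4.03 in shSTIL, a log2 fold change of 0.30 (SE 0.08, limma, adjusted p = 0.00394). The log2 ratio of LIG3 to XRCC1 rose from -0.83 ± 0.08 in shNC to -0.22 ± 0.14 in shSTIL (SD, n = 3). With 1 library left out, the XRCC1 call was lost without shNC replicate 1 or 3 or shSTIL replicate 1 or 3 (adjusted p 0.0229 to 0.0285). The POLB call was lost without shNC replicate 2 or 3 or any 1 shSTIL library (adjusted p 0.0106 to 0.0221), and the LIG3 call without shSTIL replicate 3 (adjusted p = 0.0110). The exonic bases that LIG3 shares with RFFL on the opposite strand come to 44.7% of the length of its transcript, RFFL rose by a log2 fold change of 0.36, and no strand setting is given in the sources used here, so reads of LIG3 and RFFL are not fully separable.

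**Figure D2:**
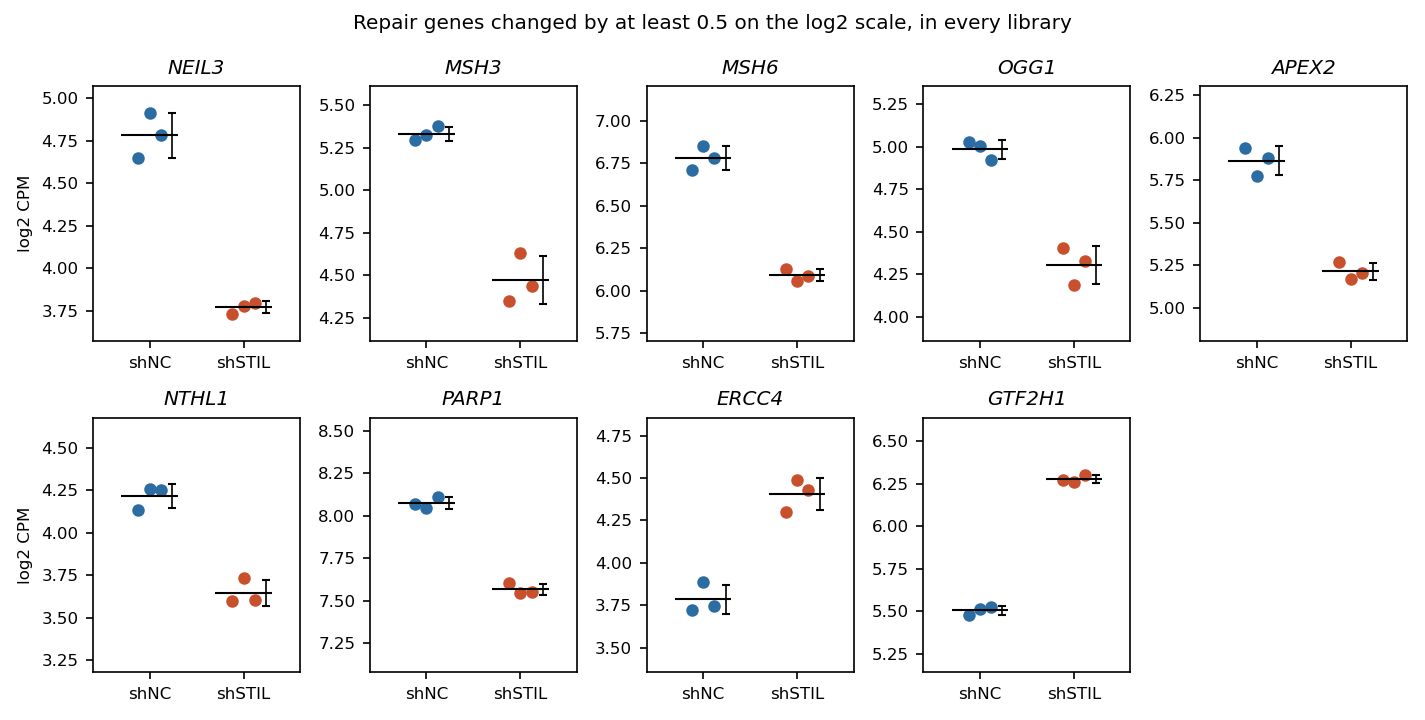
Log2 CPM in every library of the 9 repair genes with an adjusted p under 0.01 and an absolute log2 fold change of at least 0.5. Points are libraries (blue shNC, red shSTIL), horizontal lines are means and bars are SD (n = 3), and each panel spans the same height of log2 CPM on its own range. In all 9 panels the groups are apart, which choosing genes by these limits favours, with 7 genes lower and ERCC4 and GTF2H1 higher in shSTIL.

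Among the 11 nucleotide excision repair genes described here, the rises lay in the unwinding, incision and transcription-coupled steps. Of the 4 genes of unwinding and damage verification, 1 rose. GTF2H1 (chr11:18322295-18367044, plus strand), the p62 subunit of TFIIH, had 5.48, 5.51 and 5.52 log2 CPM in shNC and 6.27, 6.26 and 6.30 in shSTIL. Both groups were tight and far apart, with a log2 fold change of 0.77 (SE 0.04, limma, adjusted p = 2.01e-09), or 171% of the control level. Of all 15953 genes, 5.99%, called or not, had a log2 fold change as high or higher. The TFIIH helicase genes did not follow it. ERCC3 gave -0.04 (SE 0.04, limma, adjusted p = 0.391) and ERCC2 gave 0.12 (SE 0.04, limma, adjusted p = 0.0231), with shSTIL libraries at 6.41 to 6.51 log2 CPM and shNC libraries at 6.29 to 6.39. The log2 ratio of GTF2H1 to ERCC3 went from -0.89 ± 0.06 in shNC to -0.07 ± 0.05 in shSTIL (SD, n = 3). XPA, which verifies the lesion, gave -0.0019 (SE 0.11, limma, adjusted p = 0.989) at 138 to 169 reads per library.

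The nuclease partners ERCC4 and ERCC1, which cut on the 5′ side of the lesion as a heterodimer, both rose. ERCC4 (chr16:13920157-13952345, plus strand) had 3.72, 3.89 and 3.75 log2 CPM in shNC and 4.30, 4.49 and 4.43 in shSTIL, a log2 fold change of 0.62 (SE 0.08, limma, adjusted p = 1.38e-05). ERCC1 rose by 0.19 on the log2 scale (SE 0.04, limma, adjusted p = 6.50e-04), from 7.71 to 7.80 log2 CPM in shNC to 7.87 to 7.98 in shSTIL. The log2 ratio of ERCC4 to ERCC1 differed by 0.43 between the groups, which did not overlap. ERCC5, the nuclease on the other side of the lesion, gave 0.0072 with overlapping groups (SE 0.07, limma, adjusted p = 0.946). The ERCC1 call was lost without shNC replicate 2 or 3 or shSTIL replicate 1 or 3 (adjusted p 0.0278 to 0.0370). The exons of ERCC5 also belong to the annotated readthrough gene BIVM-ERCC5, and the exonic bases that ERCC1 shares with CD3EAP on the opposite strand come to 41.6% of its transcript length, so the split of reads at both genes is uncertain.

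The transcription-coupled genes differed from each other. ERCC8, a ubiquitin ligase subunit that acts at stalled polymerases, had 3.85, 3.67 and 3.88 log2 CPM in shNC and 4.23, 4.13 and 4.16 in shSTIL. The log2 fold change of ERCC8 was 0.38 (SE 0.08, limma, adjusted p = 0.00114), a call lost without shNC replicate 1 or 3 or any 1 shSTIL library (adjusted p 0.0101 to 0.0243). ERCC6, the ATPase that binds the stalled polymerase, gave -0.16 (SE 0.10, limma, adjusted p = 0.206) with overlapping groups. Among the damage recognition genes, DDB1, the adaptor of the CUL4 ubiquitin ligases, was the 1 that fell of the 11 nucleotide excision repair genes described here. In the list of other genes of this pathway, given below, 6 of 18 fell and 6 rose. DDB1 had 8.16, 8.19 and 8.19 log2 CPM in shNC and 7.69, 7.71 and 7.68 in shSTIL, a log2 fold change of -0.49 (SE 0.03, limma, adjusted p = 1.04e-08). RAD23B, a partner of the lesion sensor XPC, gave 0.01 (SE 0.03, limma, adjusted p = 0.789) at 7.77 to 7.83 log2 CPM in shNC and 7.79 to 7.84 in shSTIL.

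With 3 libraries against 3, the exact permutation test (two-sided, 20 labellings) cannot go below p = 0.1. It gave that value for all 24 repair genes whose groups were fully apart, whether or not limma called them. The log2 ratio was compared for 15 pairs of genes that work together or in place of each other, chosen after their values were seen, so the ratios are descriptions and separation of the groups was partly built into the choice. The pairs MSH6 to MSH3 and PARP1 to PARP2 overlapped between the groups. The ratio of LIG3 to LIG1, the replicative ligase, shifted by 2.05 on the log2 scale, from -1.46 ± 0.08 to 0.60 ± 0.16 (SD, n = 3), the largest shift of the 15.

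Levels per length were compared as RPKM, the library-scaled reads per kilobase of 1 reference transcript. APEX1 stood highest in shNC at 133.9 ± 1.1 (SD, n = 3), followed by PARP1 at 68.2 ± 1.6 and DDB1 at 64.3 ± 0.79, and these did not overlap. ERCC1 at 56.2 ± 1.9 and RAD23B at 54.1 ± 1.1 overlapped. Since PARP1 and DDB1 fell to 47.9 ± 1.1 and 45.9 ± 0.46 and ERCC1 rose to 64.1 ± 2.6, ERCC1 and RAD23B ranked above them in shSTIL. NEIL3 went from rank 20 to rank 27 of the 33 genes and GTF2H1 from rank 14 to rank 8. ERCC4 and ERCC6 were lowest in shNC, at 2.03 ± 0.13 and 1.85 ± 0.18, which overlapped.

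Other genes of these pathways were read from lists of textbook members. In the mismatch repair list of excision, clamp, clamp-loader and polymerase delta genes, 14 of 15 fell and none rose, with a median log2 fold change of -0.81. LIG1 (-1.61), PCNA (-1.47), RFC2 (-1.39), RFC1 (-1.18), POLD1 (-1.13), RPA3 (-1.02), RFC5 (-0.96), RPA1 (-0.81), EXO1 (-0.71), RFC4 (-0.68) and RFC3 (-0.51) fell by at least 0.5 on the log2 scale, with limma adjusted p-values no higher than 9.29e-07. POLD4, named after its value was seen, was the gene of this list that did not pass the test (-0.10, limma, adjusted p = 0.0740). Most of them also copy DNA at the replication fork.

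In the list of other base excision repair genes, 6 of 12 fell and 3 rose, with a median log2 fold change of -0.16. The flap nuclease FEN1 (-1.29) and the chromatin protein HMGB1 (-0.94) fell beside LIG1 and PCNA, which this list shares with the previous one. APLF, a poly(ADP-ribose)-binding factor, rose by 0.78 on the log2 scale (limma, adjusted p = 4.54e-05). In the list of other nucleotide excision repair genes, 6 of 18 fell and 6 rose, with a median of 0.04. RBX1 (-0.98), a RING subunit of cullin ligases, and CETN2 (-0.77), a centrin that binds XPC, fell. UVSSA (0.63), a transcription-coupled repair factor, rose.

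Homologous recombination and Fanconi genes, which repair breaks and crosslinks mainly in S and G2 phase, fell in 16 of 19 cases with a median log2 fold change of -0.56. The proliferation genes fell in 16 of 16 cases with a median of -0.93. Their summed level was 4465 to 4533 CPM in the shNC libraries and 2263 to 2339 CPM in the shSTIL libraries. Proliferation genes moved with the same groups as all 13 falls among the repair genes, which with 2 groups holds for any gene that fell. The part of proliferation in these falls was not tested. The medians of the mismatch (0.04), base excision (-0.20) and nucleotide excision repair genes (0.01) described here all lay nearer to 0 than those of the recombination and proliferation genes, a description without a test.

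**Figure D3:**
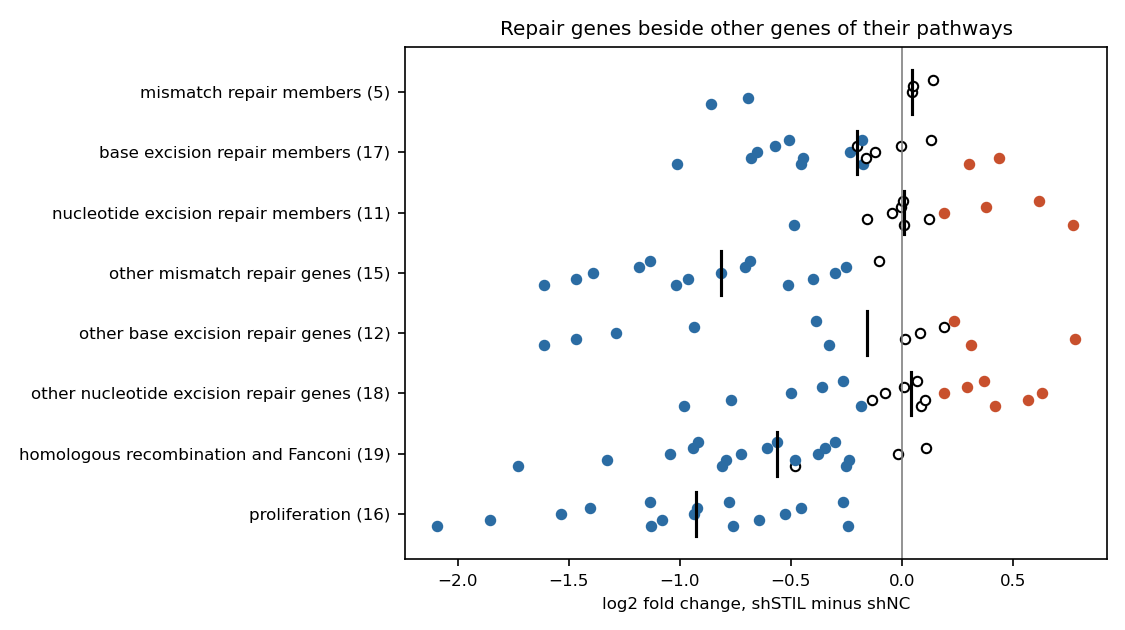
Log2 fold change (shSTIL minus shNC) of each gene in the 3 repair pathways, in the lists of other genes of those pathways, and in 2 comparison lists, with the number of genes in brackets; vertical bars are medians. Filled points passed an adjusted p under 0.01 (blue lower, red higher). All 16 proliferation genes lie below 0, while nucleotide excision repair genes lie on both sides of it.

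Some repair genes start beside a protein-coding neighbour on the opposite strand, head to head, with annotated starts within 1000 bases in GENCODE 29, and 10 such pairs were compared. Both genes were called in 3 of the 10 pairs, beside 30.7% of all 1118 measured head-to-head pairs, so this share was near the background. APEX1 and OSGEP (-0.28, limma, adjusted p = 0.00229) both fell, and ERCC8 and NDUFAF2 (0.28, limma, adjusted p = 0.00140) both rose. GTF2H1 and HPS5, whose starts lie 97 bases apart, moved in opposite directions. Of the 343 measured pairs with both genes called, 61.5% moved in the same direction, so opposite moves were common. HPS5, a vesicle trafficking gene, had 5.20, 5.37 and 5.29 log2 CPM in shNC and 4.81, 4.69 and 4.82 in shSTIL, a log2 change of -0.51 (adjusted p = 7.02e-06 by limma). In 6 pairs 1 of the genes was called, as for MBD4 (0.13) and IFT122, an intraflagellar transport gene (-0.76, limma, adjusted p = 1.42e-07), and in 1 pair neither was.

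The stretches between the starts of 4 pairs are shown, those whose whole gap lies within the RefSeq promoter window of the repair gene. Both genes fell for APEX1, both rose for ERCC8, AIMP2 but not PMS2 was called, and neither gene was called for TDG. The RefSeq window of GTF2H1 starts past its gap with HPS5, which is therefore not shown. Each is the whole gap between the annotated genes, on the strand of the repair gene, in GRCh38.p14: chr14:20455106-20455190 on the plus strand for APEX1 and OSGEP, chr5:60945074-60945128 on the minus strand for ERCC8 and NDUFAF2, chr7:6009126-6009244 on the minus strand for PMS2 and AIMP2, and chr12:103965709-103965803 on the plus strand for TDG and C12orf73. Capitals mark CCAAT or its complement ATTGG, a word bound by the factor NF-Y, and in PMS2 also the E2F word and the overlapping GC boxes (GGGCGG on the other strand).
APEX1: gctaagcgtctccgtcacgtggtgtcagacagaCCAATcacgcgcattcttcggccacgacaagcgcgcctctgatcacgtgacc
TDG: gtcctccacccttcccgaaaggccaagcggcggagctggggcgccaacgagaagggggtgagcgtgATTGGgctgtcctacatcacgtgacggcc
ERCC8: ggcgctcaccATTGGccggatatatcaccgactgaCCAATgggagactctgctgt
PMS2: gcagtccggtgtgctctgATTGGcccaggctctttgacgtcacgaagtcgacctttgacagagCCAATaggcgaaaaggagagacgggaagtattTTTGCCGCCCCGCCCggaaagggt
These 4 gaps each hold a CCAAT word, and the gap between GTF2H1 and HPS5 was not searched. CCAAT was found in 15 of the 30 promoters of repair genes (50%) beside 36.3% of those of measured genes, the GC box in 22 of 30 (73.3%) beside 65.7%, and the NRF1 word in 8 of 30 (26.7%) beside 10.1%. Among the 13 genes that fell, 8 held CCAAT and 2 held an E2F word, and among the 5 genes that rose and had a promoter in the table, 1 held CCAAT and none an E2F word. Over all measured genes, CCAAT was in 41.0% of the promoters of those called lower and 32.3% of those called higher, and an E2F word in 7.20% and 4.60%. These are counts of letters in short windows and are given without a test.

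**Figure D4:**
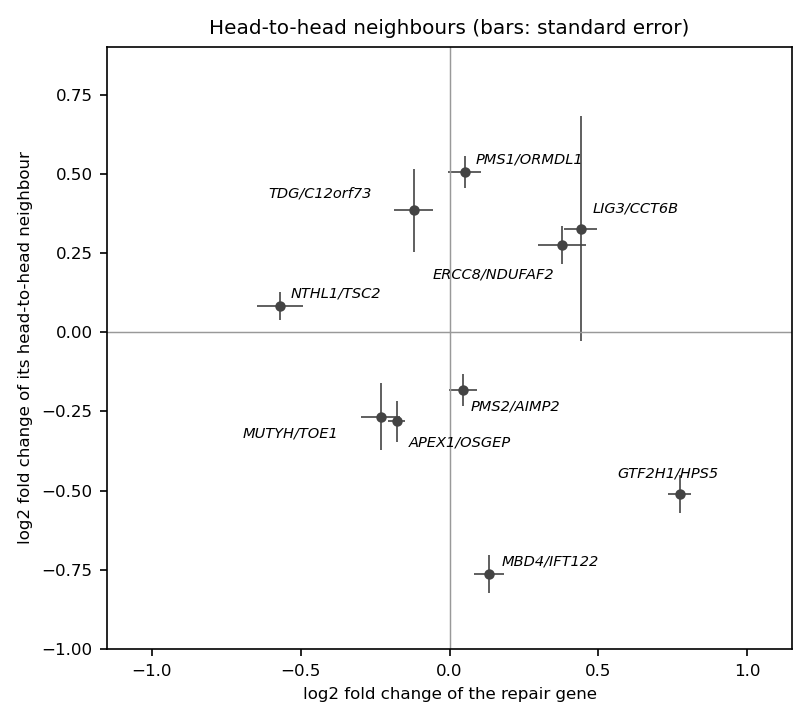
Log2 fold change (shSTIL minus shNC) of 10 repair genes on the x axis and of the head-to-head neighbour of each on the y axis; bars are limma standard errors. GTF2H1/HPS5 sits at the lower right with the repair gene higher (0.77) and its neighbour lower (-0.51).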

How the data were processed

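RNA-seq of 3 shSTIL and 3 shNC libraries of EJ cells was analysed. Reads came from a BGISEQ-500 instrument. The authors filtered them with SOAPnuke, aligned to reference transcripts with Bowtie2 (hg38 in the submitters' processing notes) and estimated counts per gene with RSEM, which can divide reads between similar genes. Versions are not given in the sources used here. The deposited tables hold log2 CPM of 15953 genes for all 6 libraries, computed by the authors with edgeR, and expected counts without normalization for 4 libraries. The tables name the groups si and the labels sh, and the labels were followed.

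The groups were compared with limma 3.58.1 (R 4.3.3) applied to log2 CPM over every gene, with a mean-variance trend, Benjamini-Hochberg adjustment and a threshold of 0.01. Reads were recovered from the spacing of the log2 CPM. Their largest difference from a deposited count was 4.93e-04 reads, and 87.5% to 87.8% were whole to within 0.01. They were rounded for edgeR 4.0.16 and DESeq2 1.42.0, run as alternatives, and the limma and edgeR fits were checked on simulated data. Alternatives covered normalization, prior count, filter, variance model, tool, threshold, replicate block and leaving out each library.

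Every repair gene is accounted for. Values in every library are given for those called with an absolute log2 fold change of at least 0.5, and for genes a group is described by. Genes of the other lists are named where called at that size. Members and lists were chosen with earlier results of these data known. Coordinates, neighbours and lengths are from GENCODE 29 (GRCh38), promoters from RefSeq (GRCh38.p14), which held 30 of the 33 genes. Some results are not reported here. Lengths are those of 1 principal transcript per gene.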

Additional observations from a re-analysis of the deposited data

How the results depend on the processing

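The numbers of falls (13) and rises (6) among the repair genes came out the same with edgeR on recovered reads, with either scaling, and with median centring, a prior count of 0.5 or a minimum mean of 1 log2 CPM. With each gene's own variance 2 rises and 10 falls were left and 4784 genes were called in all, and with limma treat against 1.2-fold 2 rises, 9 falls and 3317 genes. Leaving out 1 library gave 2 to 5 rises, 10 to 12 falls and 4900 to 5638 called genes, the fewest without shSTIL replicate 3, in fits with fewer libraries. DESeq2 did not call MUTYH and POLB, and quantile normalization did not call MUTYH. At an adjusted p under 0.05, MBD4 and ERCC2 were also called.

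Signs turned for genes that did not pass the test. XPA became 0.088 with quantile normalization, 0.0017 with edgeR and DESeq2 size factors and 0.0015 with DESeq2, SMUG1 became 0.028 with quantile normalization, and ERCC5 became -0.0016 with median centring. Leaving out 1 library moved the log2 fold change from -0.073 to 0.067 for XPA, -0.037 to 0.056 for SMUG1, -0.044 to 0.093 for ERCC5, -0.0075 to 0.074 for PMS2, -0.0013 to 0.098 for PMS1 and -0.0036 to 0.026 for RAD23B. The cause was not tested. No called repair gene changed sign under any of the alternatives.

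Deviations from the group means correlated between same-numbered libraries at -0.12, -0.06 and -0.11 (11319 genes), and no label ties them, so the libraries share only a number. The replicate block gave 6 rises, 11 falls and 6898 called genes, without MUTYH and XRCC1. The largest standard errors of log2 fold change among the repair genes were those of NEIL1 (0.13), XPA (0.11) and NEIL2 (0.10), the genes with the fewest reads (75.1 to 171 per library).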

Other observations

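Markers of other cell types stayed near the floor of the table. The leukocyte marker CD14, the measured one of 3 on that list, summed to 0.182 to 0.309 CPM in shNC libraries and 0.237 to 0.354 CPM in shSTIL libraries. The endothelial markers PECAM1 and CDH5 summed to 0.865 to 1.10 CPM in shNC and 0.822 to 0.943 CPM in shSTIL. Genes in the next lists are named because they were called. Of 10 measured urothelial markers, 2 rose (KRT7, 0.49, and PPARG, 0.26) and 2 fell (KRT8, -0.70, and UPK1B, -1.12). Of 4 mesenchymal markers, VIM (-0.68) and FN1 (-1.19) fell.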
